A study of Drosophila melanogaster with 42 samples.

Results

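Of 491 candidate regulatory regions that were assayed in whole Drosophila melanogaster embryos, 38 carry an identifier made of CBP and a number. These 38 regions are described here in all 6 sorted GFP+ cell populations and in their inputs. They were chosen by identifier alone, and no read count entered the choice. The prefix was read as CREB-binding protein, which the tables do not spell out. CBP, encoded in Drosophila by nejire (nej), is a transcriptional co-activator and histone acetyltransferase that has no sequence-specific DNA-binding role of its own and is brought to DNA by transcription factors. It occupies many active enhancers, and its binding sites are widely used to propose candidate enhancers. Binding in a mixed sample does not tell in which cells a region drives transcription, and a reporter assay addresses that question.

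The series tested the regions with enhancer-FACS-seq. Males of a transgenic pool, whose flies carry candidate regions with a GFP reporter, were crossed to females expressing rat CD2, a surface protein used as a sorting tag, under a cell-type-specific driver named twi, mef2 or duf. Embryonic cells were sorted on CD2 and on GFP, and the inserted regions were amplified from crude genomic DNA by nested PCR and sequenced in 42 libraries. Inputs were sorted on CD2 alone, so a region that switches on GFP in a population is read more often, relative to the other regions, after the GFP sort.

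The driver twi is named after twist, which encodes a transcription factor needed to form the mesoderm, and mef2 after Mef2, whose product turns on muscle genes. The driver duf is named after dumbfounded (kirre), which encodes an adhesion protein of the founder cells of muscles. The twi CD2+ population had 3 GFP+ libraries of 100783 to 111875 cells and 3 CD2+ inputs of 100000 to 200000 cells. The twi CD2- population had 3 GFP+ libraries of 63849 to 66845 cells and 3 CD2- inputs of 100000 to 200000 cells. The mef2 CD2+ population had 1 GFP+ library of 16163 cells, set by the design against 5 CD2- inputs of 20048 to 32326 cells, called small inputs here. The mef2 CD2- population had 3 GFP+ libraries of 94473 to 138635 cells and 3 CD2- inputs of 200000 cells. The duf CD2+ population had 1 GFP+ library of 20015 cells, set against 5 small inputs of 39668 cells. The duf CD2- population had 6 GFP+ libraries of 36206 to 55331 cells and 6 CD2- inputs of 200000 cells. Titles of the small duf inputs name CD2 with no plus or minus, and the cell population label and the series design put them in CD2-. All groups share the transgenic reporter background and the CD2 transgene. Every CD2+ call rests on where the driver is active, both single GFP+ libraries are labelled as pooled, and extracts were pooled by sample type before PCR. In both CD2+ comparisons with 1 library, the CD2 sort and the GFP sort differ together. Libraries held 15601850 to 30671351 reads in all regions. The labels do not tell whether replicates are separate crosses, and p-values therefore cover the spread among these libraries only, which may be technical.

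The 38 CBP regions were 931 to 1096 bp long, with a median of 1030.5 bp against 1007 bp over all 491 regions. Their GC content ran from 34.0% to 54.0% with a median of 42.3%, and the median over all regions was 42.3% too. On the dm3 assembly 13 lay on 2R, 13 on 3L, 4 on 2L, 4 on 3R and 4 on X. Of all 491 regions 60 lay on 2R and 94 on 3L. Many CBP regions were close together. CBP5210 (2R 12671211 to 12672283) and CBP5211 (2R 12672264 to 12673253) shared 20 bp. CBP5342 (2R 14498564 to 14499564) overlapped the region DHS_FC_14 by 638 bp, and CBP5825 (2R 21079055 to 21079995) overlapped DHS_FC_18 by 492 bp. Reads in such stretches could be divided between both regions, but DHS_FC_14 and DHS_FC_18 never held more than 1 and 2 reads.

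Which CBP regions were seen at all differed between the duf libraries and those of twi and mef2. Of the 38, 18 had 0 reads in each of the 24 twi and mef2 libraries, GFP+ and input alike, and 15 of these 18 had reads in duf libraries. Over all regions 207 of 491 had 0 reads in every twi and mef2 library. A count of 0 allows up to 3 reads, which is 0.0978 to 0.192 CPM in a library, where CPM is the reads of a region per 1e6 reads in all regions of its library. At least 100 reads in every input were held by 27 CBP regions (71.1%) in the 200000-cell duf inputs, by 11 (28.9%) in twi CD2- inputs, by 10 (26.3%) in twi CD2+ inputs and by 10 (26.3%) in the 200000-cell mef2 inputs. The shares over all regions were close to these, at 65.8%, 32.6%, 28.1% and 27.9%. Driver, fly pool and sequencing run cannot be told apart here.

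Only CBP1410, CBP2861, CBP5211 and CBP5467 reached 100 reads in every large input of all 3 drivers. Another 16 reached it for duf alone: CBP324, CBP1942, CBP3299, CBP3300, CBP3885, CBP3886, CBP4230, CBP4242, CBP4244, CBP4278, CBP5210, CBP5377, CBP5379, CBP5819, CBP6172 and CBP6837. CBP7342 reached it for mef2 alone and had 0 reads in every duf library. CBP3887 reached it for twi alone, and CBP5470 for twi and mef2. CBP2619, CBP2862 and CBP5827 reached it for twi and duf, and CBP1911, CBP4280, CBP5083 and CBP5818 for mef2 and duf. CBP3048 (3L 2774031 to 2774974), CBP5342 and CBP5823 (2R 20963591 to 20964590) had 0 reads in all 42 libraries, as did 26 regions of the series. Their activity was therefore not measured.

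The CBP regions together took a larger share of the reads in duf GFP+ cells than in duf inputs, and few regions carried this. In duf CD2- GFP+ cells they held 27.1% ± 0.503 of the reads (SD, n = 6), against 7.93% ± 2.03 in the input (n = 6). The GFP+ libraries lay between 26.2% and 27.6% and the inputs between 5.11% and 10.8%, with no overlap. By mean CPM, CBP4242, CBP2861 and CBP2862 held 88.3% of the CBP reads in these GFP+ libraries. The other CBP regions together held less of all reads there than in the input. The single duf CD2+ GFP+ library held 14.6% (95% interval 14.57% to 14.60%, counting error only), against 7.65% ± 1.33 in its 5 small inputs, of which the highest held 9.02%. Both duf GFP+ groups came from fewer cells than their inputs, and the part of cell number in these differences was not tested.

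The share was not larger in the GFP+ cells of the other drivers. In mef2 CD2- GFP+ cells it was 6.50% ± 0.595 against 9.43% ± 0.544 in the input (n = 3 each), with every GFP+ library below every input. The single mef2 CD2+ GFP+ library held 1.92% (95% interval 1.91% to 1.92%), against 8.76% ± 2.12 in its 5 small inputs, of which the lowest held 6.68%. In twi cells the groups overlapped, with 5.50% ± 0.590 against 6.01% ± 0.668 in CD2- cells and 4.49% ± 1.04 against 5.07% ± 0.436 in CD2+ cells (n = 3 each). Few regions made up each share. CBP4242 alone held 63.6% of the CBP reads in duf CD2- GFP+ cells and 45.4% in the duf CD2+ GFP+ library. In twi and mef2 inputs CBP1410 led, with 47.1% to 59.7% of the CBP reads.

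Every CBP region that was called higher in any population was among the calls in duf CD2- cells, the population with the most libraries. By edgeR's quasi-likelihood test at a Benjamini-Hochberg adjusted p of 0.05, 9 of 31 tested CBP regions rose and 0 fell. This fit, like all reported fits, did not pair libraries by replicate number. Over all 400 regions tested 47 rose (11.8%) and 5 fell (1.25%). The 9 were CBP4242, CBP2861, CBP4244, CBP2862, CBP3300, CBP1911, CBP5467, CBP5211 and CBP5379. The median log2 change was 0.78 over the 31 tested CBP regions and -0.07 over all 400 regions. The other 7 CBP regions were left out of the test. CBP3048, CBP5342, CBP5823 and CBP7342 had 0 reads in every duf library, and CBP5470, CBP5825 and CBP6784 did not reach the filter's minimum in enough libraries. The 6 GFP+ libraries lay entirely above the 6 inputs in CPM for 3 of 34 CBP regions with reads (3.56% of all regions with reads) and entirely below for 5 (20.2%).

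CBP4242 (3L 20394856 to 20395883) was the most abundant of all 491 regions in duf CD2- GFP+ cells and ranked 119 in their input. Its CPM in the 6 duf CD2- GFP+ libraries ran from 148685 through a median of 172767 to 193909, and in the 6 inputs from 414 through 2994 to 6177. All GFP+ libraries lay far above all inputs. The means were 172339 ± 18513 and 2897 ± 1976 CPM, a ratio of 59.5, and the log2 change was 7.97 ± 0.58 (SE, edgeR adjusted p = 4.40e-08). In the single duf CD2+ GFP+ library it had 66168 CPM, and its 5 small inputs had 6292, 120, 1868, 2073 and 338 CPM. That library too lay above every input, at a log2 change of 5.48 ± 1.27, but the adjusted p was 0.175 by edgeR. CBP4242 had 0 reads in all 24 twi and mef2 libraries, so its activity there was not measured.

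CBP4244 (3L 20398156 to 20399250), 2272 bp from CBP4242, rose in the same cells from a much lower level. Its CPM ran from 583 through a median of 2935 to 11427 in duf CD2- GFP+ libraries and from 13.3 through 264 to 539 in the inputs. The lowest GFP+ library lay just above the highest input, and the log2 change was 5.87 ± 1.00 (edgeR adjusted p = 0.000457). In the duf CD2+ GFP+ library it had 3986 CPM, above its 5 small inputs at 516, 586, 5.51, 2710 and 0.622 CPM, at a log2 change of 2.85 (not past the threshold). It too had 0 reads in twi and mef2 libraries.

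CBP2861 (3L 317954 to 319048) and CBP5467 were each called in 2 populations. CBP2861 rose in duf CD2- and in mef2 CD2- cells. In duf CD2- GFP+ libraries its CPM ran from 51194 through a median of 51890 to 68444, and in the inputs from 7243 through 14478 to 17102. The groups did not overlap, and the log2 change was 4.15 ± 0.34 (edgeR adjusted p = 1.20e-07). In mef2 CD2- cells the 3 GFP+ libraries had 44856, 33907 and 39530 CPM and the 3 inputs 9767, 19424 and 15655 CPM. Again all GFP+ values lay above all inputs, with a log2 change of 2.96 ± 0.38 (edgeR adjusted p = 0.00237). In twi CD2- cells the GFP+ libraries had 12682, 11210 and 8598 CPM and the inputs 5104, 2428 and 976 CPM. These did not overlap either, but the log2 change of 3.20 ± 1.00 did not pass (adjusted p = 0.201).

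The CD2+ cells showed no such gain of CBP2861. The duf CD2+ GFP+ library had 11309 CPM, within the range of its small inputs at 9012, 13820, 8814, 6539 and 18425 CPM. The mef2 CD2+ GFP+ library had 165 CPM, below its small inputs at 262, 32298, 13840, 16273 and 14442 CPM, at a log2 change of -6.58 ± 3.08 (edgeR adjusted p = 0.707). In twi CD2+ cells the GFP+ libraries had 1728, 25.6 and 34.7 CPM and the inputs 1061, 4875 and 23.4 CPM, which overlapped.

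CBP2862 (3L 320026 to 321098), 977 bp from CBP2861, did not follow its neighbour in every population. In duf CD2- cells its CPM ran from 2888 through a median of 11239 to 18774 in GFP+ libraries and from 207 through 1826 to 4401 in inputs. The groups overlapped in CPM, and the log2 change was 4.58 ± 0.80 (edgeR adjusted p = 0.000521). In twi CD2+ cells the 3 GFP+ libraries had 9608, 21556 and 8718 CPM and the inputs 1163, 431 and 6215 CPM. The GFP+ values were all above the inputs, and the log2 change of 4.07 ± 1.14 did not pass (edgeR adjusted p = 0.0899), while CBP2861 overlapped its inputs there. In twi CD2- cells, where CBP2861 lay above its inputs, CBP2862 had 29.1, 57.0 and 21.1 CPM in GFP+ libraries and 739, 875 and 12.4 CPM in inputs. It was scarce in all mef2 CD2- libraries, at 2.30, 10.5 and 3.78 CPM in GFP+ cells and 1.22, 0.620 and 0.542 CPM in inputs.

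CBP1911 (2L 5542296 to 5543294) was high in GFP+ cells of both duf populations. In duf CD2- cells its CPM ran from 490 through a median of 4216 to 9404 in GFP+ libraries and from 745 through 1809 to 3563 in inputs. The lowest GFP+ library lay below every input, and the log2 change was 3.17 ± 0.65 (edgeR adjusted p = 0.00235). In the duf CD2+ GFP+ library it had 14718 CPM, above all small inputs at 2171, 1298, 389, 916 and 320 CPM. The log2 change of 4.38 ± 1.05 did not pass (edgeR adjusted p = 0.181). In mef2 CD2- cells it varied without a call, with 212, 0.749 and 3731 CPM in GFP+ libraries and 3738, 3345 and 331 CPM in inputs.

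CBP5467 (2R 16487993 to 16489070) rose in twi CD2- and in duf CD2- cells. The 3 twi CD2- GFP+ libraries had 34984, 24891 and 31198 CPM and the 3 inputs 9782, 6841 and 3854 CPM, with no overlap. The log2 change was 3.44 ± 0.52 (edgeR adjusted p = 0.00556). In duf CD2- cells its CPM ran from 790 through a median of 3876 to 4816 in GFP+ libraries and from 364 through 1500 to 4896 in inputs. The GFP+ range lay within the input range, and the log2 change was 2.89 ± 0.63 (edgeR adjusted p = 0.00394). In twi CD2+ cells the GFP+ libraries had 7146, 9390 and 7375 CPM and the inputs 9369, 6541 and 506 CPM, which overlapped. In mef2 CD2- cells GFP+ libraries with 6265, 6160 and 7257 CPM lay among inputs with 9454, 4881 and 7890 CPM.

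CBP5211 was called in duf CD2- cells only, and there its CPM ranges overlapped. They ran from 230 through a median of 2301 to 3542 in GFP+ libraries and from 540 through 1416 to 3290 in inputs, with a log2 change of 2.52 ± 0.65 (edgeR adjusted p = 0.0141). The call was lost with the replicate number as a block (adjusted p = 0.0774) and without input replicate 2, 5 or 6 (0.0507 to 0.0549). In twi CD2+ cells the GFP+ libraries had 6822, 2902 and 11855 CPM and the inputs 55.6, 2083 and 29.2 CPM. They did not overlap, and the log2 change of 4.77 ± 1.75 did not pass (adjusted p = 0.202). In twi CD2- cells the order was the opposite, with 21.7, 8.54 and 31.4 CPM in GFP+ libraries and 1205, 1596 and 2106 CPM in inputs.

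CBP3300 (3L 7363719 to 7364758) and CBP5379 (2R 15161023 to 15162009) were called in duf CD2- cells with CPM values that overlapped the inputs. For CBP3300 they ran from 1661 through a median of 2427 to 3740 in GFP+ libraries and from 1394 through 1709 to 2923 in inputs, with a log2 change of 2.43 ± 0.45 (edgeR adjusted p = 0.00103). For CBP5379 they ran from 350 through 2164 to 6639 and from 1289 through 1862 to 5589, with a log2 change of 2.26 ± 0.66 (edgeR adjusted p = 0.0310). The call of CBP5379 was lost when any one of GFP+ replicates 3 and 4 or input replicates 1, 2, 3, 5 and 6 was left out, at adjusted p of 0.0682 to 0.0931.

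How far the duf CD2- calls hold depends on the scale. TMM scaling centres the bulk of the regions, while CPM is a share of all reads of a library. The cause of the gap between these scales was not tested. Scaling by total reads instead moved the median log2 change of all tested regions by -2.08 and -0.53 in duf CD2- and CD2+ cells, by -1.59 and 0.04 in mef2 CD2- and CD2+ cells, and by -1.30 and -1.61 in twi CD2- and CD2+ cells. On that scale 4 CBP regions rose in duf CD2- cells, CBP4242, CBP2861, CBP4244 and CBP2862, with log2 changes of 5.89, 2.08, 3.72 and 2.51. The other 5 calls kept a positive log2 change of 0.21 to 1.14 with adjusted p of 0.164 to 0.787. On the same scale 3 CBP regions fell, CBP4278 by 3.13, CBP5083 by 2.64 and CBP324 by 2.20 log2 units, and the split over all regions was 22 higher and 95 lower.

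The labels give the sequencing lane of each duf library, and only lanes 1 and 8 held both CD2- GFP+ cells and their input. Lane 1 held 1 such GFP+ library and 1 input, and lane 8 held 1 GFP+ library and 2 inputs. CBP4242 in GFP+ cells was 51.7 times its input in CPM within lane 1 and 209 times within lane 8. CBP2861 was 5.87 times its input within lane 1 and 3.12 times within lane 8. CBP1911, CBP2862, CBP4244, CBP5211 and CBP5379 were also higher in GFP+ cells within both lanes, at 1.28 to 249 times the input. The 249 was CBP4244 in lane 1, over an input of 13.3 CPM, and in lane 8 it was 1.49 times its input. CBP5467 was 0.766 times its input within lane 1 and 7.02 times within lane 8, and CBP3300 was 2.52 and 0.588 times. With lane as a block, edgeR called CBP4242 and CBP2861, and the other 7 had adjusted p of 0.0588 to 0.246.

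Other CBP regions were abundant in duf inputs and not in GFP+ cells. CBP4278 (3L 20780268 to 20781347) ran from 3.57 through a median of 890 to 1686 CPM in duf CD2- GFP+ libraries and from 5453 through 7971 to 9599 CPM in inputs, with no overlap. CBP324 (X 3049151 to 3050125) ran from 411 through 799 to 4224 CPM and from 3604 through 6962 to 14143 CPM, with a small overlap. Their log2 changes on the TMM scale were -0.99 and -0.13, and neither passed. CBP5083, CBP5377, CBP5827 and CBP6172 also had every GFP+ library below every input, at mean CPM of 296, 147, 447 and 119 against 1841, 970, 2730 and 1054.

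In the duf CD2+ comparison 0 of 33 tested CBP regions passed edgeR's test, and 1 of 425 regions overall was higher (0.235%) and 0 lower (0%). At an unadjusted p under 0.05 there were 3 CBP regions, CBP4242, CBP1911 and CBP3886, against 30 of all 425 regions. DESeq2 called 5 CBP regions, and its calls over all regions are not given here for any comparison. CBP3886 (3L 15341667 to 15342687) had 0.0912 CPM in the GFP+ library, from 2 reads, and 1299, 1095, 2208, 5545 and 368 CPM in the small inputs. The ratio of input to GFP+ reads in CPM was 23840, with a 95% counting interval of 6600 to 196859, and the log2 change of -13.92 had an adjusted p of 0.323. The GFP+ library lay above all 5 small inputs for 7 of 33 CBP regions with reads and below them for 7, against 12.1% and 23.9% of all regions with reads. The 7 above were CBP324, CBP1911, CBP2862, CBP3299, CBP4242, CBP4244 and CBP5211, at 2.72 to 30.9 times the mean of the inputs. CBP324 stood above its small inputs here, at 5382 CPM against 1852, 3598, 4169, 113 and 3.16. That value lay within the range of the large CD2- inputs, 3604 to 14143 CPM, below which most CD2- GFP+ libraries lay. As the input sets differ, this is not read as a difference between CD2+ and CD2- cells.

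In mef2 CD2- cells 3 of 14 tested CBP regions passed edgeR's test, 1 higher and 2 lower. Over all 183 regions tested 10 rose (5.46%) and 4 fell (2.19%). The region that rose was CBP2861, and with the replicate number as a block it was the only CBP region called. The 2 that fell, CBP7342 and CBP4280, had 0 reads in all 3 GFP+ libraries and at least 100 reads in each input. In CPM, 2 of 20 CBP regions with reads lay above the inputs in every GFP+ library and 5 below, against 6.91% and 33.3% of all regions with reads.

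CBP7342 (3R 21307511 to 21308494) had 1694, 3309 and 4112 CPM in the mef2 CD2- inputs, against 0 reads in GFP+ cells. With 3 reads over the group as the floor, that was at least 55059-fold lower in CPM by read counting alone. The bound leaves out how many sorted cells carried the region, and the edgeR adjusted p was 0.0416. Leaving out GFP+ replicate 3 or any input raised the adjusted p to between 0.0520 and 0.144. In the 5 small mef2 inputs it had 9826, 1891, 1.29, 7281 and 0.0593 CPM, so single inputs of fewer cells also nearly lacked it. The mef2 CD2+ GFP+ library had 9.53 CPM, and the twi libraries at most 6.86 CPM.

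CBP4280 (3L 20787302 to 20788384) had 10.6, 44.5 and 27.4 CPM in the mef2 CD2- inputs and 0 reads in GFP+ cells (edgeR adjusted p = 0.0352). With the same floor, that was at least 498-fold lower in CPM by read counting alone. Leaving out any 1 library raised the adjusted p to between 0.0650 and 0.131. In duf CD2- cells the same region was common, from 0.483 through a median of 167 to 1972 CPM in GFP+ libraries and from 477 through 1630 to 2392 CPM in inputs, at a log2 change of 0.10 (not past the threshold).

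CBP1410 (X 19591043 to 19592056) was the most abundant of all 491 regions in both kinds of mef2 input. In mef2 CD2- cells it had 11728, 12774 and 12377 CPM in GFP+ libraries and 53348, 59868 and 55748 CPM in inputs, well below in every library. In twi CD2- cells it had 6945, 8641 and 9267 CPM against 29308, 34786 and 41616 CPM, also without overlap. On the TMM scale the log2 changes were -0.63 and -0.77, and neither passed. Scaled by total reads it fell by 2.21 and 2.09 log2 units, with edgeR adjusted p of 0.000722 and 0.0358, so its call rests on the scaling. In twi CD2+ cells the GFP+ libraries had 6099, 12973 and 14670 CPM and the inputs 18876, 27291 and 25595 CPM, below without overlap, with a log2 change of 0.50 after TMM and -1.09 by total reads. Neither passed, and the sign depended on the scaling. In duf CD2- cells CBP1410 ran from 0.615 through a median of 623 to 2986 CPM in GFP+ libraries and from 512 through 3396 to 7058 CPM in inputs, which overlapped, with log2 changes of -0.12 after TMM and -2.02 by total reads that both missed the threshold.

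In the mef2 CD2+ comparison 0 of 19 tested CBP regions passed edgeR's test, and 0 of 230 regions overall did (0%). At an unadjusted p under 0.05 there were 2 CBP regions, CBP1410 and CBP2861, both lower, against 16 of all 230 regions. DESeq2 called 0 CBP regions. CBP1410 had 5498 CPM in the GFP+ library and 41357, 66963, 52488, 26050 and 43436 CPM in the small inputs, a log2 change of -3.09 ± 1.04 (edgeR adjusted p = 0.282). With all CD2- inputs of the driver as control, it was called lower. The GFP+ library lay above every small input for 1 of 20 CBP regions with reads and below for 3 (13.4% and 11.3% of all regions with reads). The 1 above was CBP5818 (2R 20951976 to 20953020), at 13060 CPM against 2073, 16.2, 11.6, 4.46 and 44.1 CPM, with a log2 change of 4.78 ± 3.38 (edgeR adjusted p = 0.859). It held 68.1% of the CBP reads of that library.

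In twi CD2- cells CBP5467 was the only 1 of 16 tested CBP regions that passed, and over all 204 regions 6 rose (2.94%) and 0 fell (0%). The call had an adjusted p of 0.0757 without GFP+ replicate 1 and of 0.0664 when scaled by total reads. GFP+ libraries lay above all inputs for 2 of 20 CBP regions with reads, CBP2861 and CBP5467, and below for 3, CBP1410, CBP5211 and CBP5470 (2.72% and 31.9% of all regions with reads). In twi CD2+ cells 0 of 14 tested CBP regions passed, against 10 of 195 regions higher (5.13%) and 0 lower (0%). At an unadjusted p under 0.05 there were 2, CBP2862 and CBP5211, against 26 of all 195 regions, and DESeq2 called both. GFP+ libraries lay above all inputs for these 2 of 19 CBP regions with reads and below for 5, CBP324, CBP1410, CBP2619, CBP3887 and CBP5470 (5.24% and 35.5% of all regions with reads).

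Enrichment in CD2+ cells was set against that in CD2- cells of the same driver in a fit over its 4 groups. No CBP region passed for any driver by edgeR. For twi, 0 of 18 passed (0% of 211 regions higher, 0% lower). DESeq2 called 2, and 3 had an unadjusted edgeR p under 0.05, against 21 of all 211 regions. CBP5211 and CBP2862 had the smallest p of the CBP regions, with log2 differences of 9.72 ± 2.48 (adjusted p = 0.119) and 6.76 ± 2.01 (adjusted p = 0.175), higher in CD2+ cells. Without twi CD2+ input replicate 2, CBP5211 passed.

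For mef2, 0 of 20 CBP regions passed (0% of 231 regions higher, 0.433% lower). DESeq2 called 4, and 7 had an unadjusted edgeR p under 0.05, against 36 of all 231 regions. CBP2861 had a log2 difference of -9.79 ± 2.44, lower in CD2+ cells (edgeR adjusted p = 0.112), and it passed without small input replicate 1. For duf, 0 of 33 passed (0% of 430 regions in either direction). At an unadjusted edgeR p under 0.05 there were 3, against 30 of all 430 regions, and DESeq2 called 6. CBP2861 was again lower in CD2+ cells, by a log2 difference of -3.29 ± 0.93 (edgeR adjusted p = 0.336). The median difference over all regions was -1.40 for mef2 and -0.79 for duf, and scaling by total reads raised the median by 1.86 and 1.24.

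Enrichment in CD2- cells was also compared between drivers. Between mef2 and twi 0 of 15 CBP regions differed by edgeR (0% of 192 regions in either direction). At an unadjusted edgeR p under 0.05 there were 5, against 23 of all 192 regions, and DESeq2 called 3. Between duf and twi 3 of 16 had a higher enrichment in duf cells (4.43% of 203 regions) and 0 a lower one (0.493%). These were CBP5211, with a log2 difference of 7.30 ± 1.56 (adjusted p = 0.00850), CBP324, with 11.65 ± 2.63 (0.0121), and CBP2862, with 6.93 ± 1.70 (0.0203). With replicate numbers as a block 0 passed, at adjusted p of 0.0538, 0.339 and 0.0547. CBP324 had 0.283, 0 and 0.0529 CPM in twi CD2- GFP+ libraries and 0.140, 534 and 3102 CPM in the inputs, and its log2 change within duf CD2- cells was -0.13, which did not pass.

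Between duf and mef2 4 of 15 CBP regions had a higher enrichment in duf cells (9.38% of 192 regions) and 0 a lower one (0.521%). Their log2 differences were 13.64 ± 3.49 for CBP5379 (edgeR adjusted p = 0.0238), 12.63 ± 3.77 for CBP5819 (0.0383), 11.60 ± 3.54 for CBP4280 (0.0443) and 7.81 ± 2.47 for CBP324 (0.0495). All 4 were near absent from mef2 CD2- GFP+ cells, at no more than 0.861 CPM in any library. CBP5379 had 0, 660 and 0 CPM and CBP5819 had 0.523, 2252 and 0.246 CPM in the mef2 CD2- inputs, so both rest on input replicate 2. CBP324 had 301, 0.0517 and 588 CPM there. Without mef2 CD2- GFP+ replicate 2 none of the 4 passed, and none passed with replicate numbers as a block (adjusted p of 0.122 to 0.754). CBP4280 and CBP324 each missed the threshold in 16 of 23 alternatives, CBP5819 in 9 of 22 and CBP5379 in 2 of 22. For CBP5819 and CBP5379 the 22 leave out the run without mef2 CD2- input replicate 2. Both then fell under the minimum input mean of 10 reads and were not tested. Driver, pool and run cannot be told apart in these comparisons either.

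Pairs of neighbouring CBP regions did not share one pattern. In duf CD2- GFP+ cells both members were called for CBP4242 and CBP4244 and for CBP2861 and CBP2862. CBP3300 was called and CBP3299, 316 bp away, was at 0.78 on the log2 scale, not past the threshold. CBP5211 was called and CBP5210, which shares 20 bp with it, had -0.15. CBP5379 was called and CBP5377, 2547 bp away, had -0.71. Of CBP5818 and CBP5819, 288 bp apart, neither passed, with log2 changes of 0.99 and 1.25. CBP5467 was called while CBP5470, 3430 bp away, held at most 2447 reads in any library and 1 read in the 6 large duf inputs together.

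The members not yet described gave no call in any of the 12 tests. CBP43, CBP51, CBP1942, CBP2776, CBP3299, CBP4230, CBP6784 and CBP6837 were seen in duf libraries alone, at mean CPM of 144 to 4356 in the large duf inputs and of 1.87 to 1034 in duf CD2- GFP+ cells. CBP2619, CBP3885 and CBP5827 had mean CPM of 647, 5383 and 2730 in those inputs and of 336, 877 and 447 in the GFP+ cells. CBP5825 had a mean of 2154 CPM in twi CD2- inputs and 1973 CPM in twi CD2+ inputs, against 0.158 CPM in the large duf inputs and 0.295 CPM in the large mef2 inputs. CBP3887 had its highest mean among inputs in twi CD2+ cells, at 4125 CPM, and 422 CPM in their GFP+ cells, where every GFP+ library lay below every input.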

How the data were processed

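Inserted regions were amplified from genomic DNA of sorted embryonic cells and sequenced in 42 libraries. Per the submitters' processing notes, CASAVA 1.8 and the dm3 build were used, and no source used here gives the version of the mapper. Each deposited table holds an expected count of reads per region, not normalized, with fractions in 2 to 87 regions per library. Per the file headers they also hold the read count at each end of a region and its sum, and GC content as a fraction. Coordinates were taken as inclusive, since GC content times length was whole (tolerance 1e-06) in all 20655 lines. In 11 of the tables, 3 regions that are not CBP regions were listed on several lines and were merged. The place of regions in genes was not analysed here, because the gene table at hand is of another assembly.

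Expected counts were rounded and all regions of a comparison were fitted with edgeR 4.0.16 (R 4.3.3, limma 3.58.1), using TMM, filterByExpr, the quasi-likelihood F test and Benjamini-Hochberg adjustment over all regions tested, at 0.05. The standard error of a log2 change was taken as its size divided by the root of the F statistic. Each of 6 GFP+ populations was tested against the input that the series design gives it, with the spread of a lone library taken from the others in its fit. Differences of enrichment were tested between CD2+ and CD2- cells within a driver and between drivers in CD2- cells. Libraries held 15601850 to 30671351 reads. These are PCR reads without molecular identifiers, so floors (3 reads) and exact 95% intervals cover counting error only. The biological coefficient of variation was 139% to 179%.

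Alternatives were scaling by total reads, DESeq2 1.42.0, other filters on low counts (none, or a mean count of 100), end reads in place of all reads, leaving out each library, other controls, lane, and the replicate number as a block. The replicate numbers come from the titles. Deviations from group means of same-numbered GFP+ and input libraries had correlations of 0.15 to 0.30 for twi CD2+ and of 0.22 to 0.28 for twi CD2- cells. They were 0.20 to 0.37 for duf CD2- and 0.05 to 0.18 for mef2 CD2- cells. Each GFP+ library correlated best with the input of its own number, in mef2 too, where the correlations were weakest. The numbers may therefore pair the libraries. The reported fits did not use this pairing, so their p-values leave it out, and the block was run as an alternative only. No pair of libraries in a group was identical or agreed within sampling noise. Regions named with values were those called in any test, the 3 most abundant CBP regions of each group, those with the smallest p, those at 0 reads and those that overlap another region. The members follow from their identifier alone, while the lists of named regions and the tests were chosen with earlier results of these data known.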

Additional observations from a re-analysis of the deposited data

Results flagged for a closer look

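In groups of 4 to 10 libraries, single libraries stood far from the others for 12 of 63 combinations of region and group. The cut-offs pass about 5% by chance only where values are normally distributed. That was not checked for these CPM values, so 12 of 63 is not read as an excess over chance. Among duf CD2- GFP+ libraries, replicate 6 was the highest for CBP4244, at 11427 CPM with the next at 3308, and for CBP3887, at 609 CPM with the next at 0.825. Replicate 5 was the highest for CBP1410, at 2986 CPM with the next at 1004, and replicate 4 for CBP4280, at 1972 CPM with the next at 201. Among large duf CD2- inputs, replicate 4 held 5199 CPM of CBP3886, with the next at 1472. Among small duf inputs, replicate 4 held 10966 CPM of CBP3300, with the next at 3052, and 2710 CPM of CBP4244, with the next at 586.

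The small mef2 inputs, from 20048 to 32326 cells, gave 5 of the 12. Replicate 2 was the highest for CBP1911, at 7965 CPM with the next at 22.3, and the lowest for CBP5211, at 53.4 CPM with the next at 12267. Replicate 1 was the highest for CBP5818, at 2073 CPM with the next at 44.1, and for CBP5379, at 16.2 CPM with the next at 1.39. Replicate 5 held 26382 CPM of CBP5467, with the next at 7510.

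Enrichment in CD2- cells differed between drivers for 7 combinations of region and driver pair by edgeR's test of the difference. Between duf and twi the log2 differences were 7.30 for CBP5211, 6.93 for CBP2862 and 11.65 for CBP324. Between duf and mef2 they were 13.64 for CBP5379, 12.63 for CBP5819, 11.60 for CBP4280 and 7.81 for CBP324. All were higher in duf cells, and none passed with replicate numbers as a block. Within duf CD2- cells CBP5211, CBP2862 and CBP5379 were called. CBP324, CBP4280 and CBP5819 were not, at log2 changes of -0.13, 0.10 and 1.25 against their input.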

How the results depend on the processing

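No region called in the reported fits changed the sign of its log2 change in any alternative run, but the split of calls did change. Scaled by total reads, twi CD2- cells had 0 CBP regions higher and 1 lower in place of 1 and 0, mef2 CD2- cells 1 and 3 in place of 1 and 2, and duf CD2- cells 4 and 3 in place of 9 and 0. CBP4242 and CBP2861 in duf CD2- cells and CBP2861 in mef2 CD2- cells passed in every one, at log2 changes of 5.89 to 8.97, 2.08 to 4.32 and 1.39 to 4.07. DESeq2 called 2 CBP regions in each twi population, 7 in mef2 CD2- cells and 5 in duf CD2+ cells, where edgeR called 0 in twi CD2+, 1 in twi CD2-, 3 and 0. It was 2, 4 and 6 for the CD2 differences in twi, mef2 and duf and 3 between mef2 and twi, against 0 in each by edgeR. The DESeq2 calls over all regions are not given here, so these counts are not set against a share. With all CD2- inputs as control, mef2 CD2+ cells had 1 call and duf CD2+ cells 3, and with the spread of all 4 duf groups 2 in duf CD2+ cells. Without a filter on low counts 1 of 3 calls in mef2 CD2- cells was left, and with lane as a block 2 of 9 in duf CD2- cells. End reads in place of all reads left 2 of 4 calls between duf and mef2. With the replicate block there was 1 call in mef2 CD2- cells, 0 between duf and twi and 0 between duf and mef2. In all populations checked every library correlated best with the library of its own number. The block changed no other number of calls by more than 1.5 times. The cause of these changes was not tested.

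Leaving out 1 library gave 0 to 1 calls in each twi population, 1 to 2 for mef2 CD2- and 7 to 10 for duf CD2- cells. It gave 0 to 1 calls for the twi and 0 to 1 for the mef2 CD2 difference, 3 to 4 between duf and twi and 0 to 4 between duf and mef2. In the other comparisons it left 0 calls throughout. Measured on end reads, the CBP share moved by more than the spread between libraries, or beyond the counting interval, in 6 of 12 groups, for example from 6.50% to 5.84% in mef2 CD2- GFP+ cells. Regions at a few reads in GFP+ cells, and the single CD2+ libraries of mef2 and duf, limit what these data resolve.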

Other observations

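The spread between input libraries differed between groups. Over CBP regions with at least 100 reads in every library of a group, the highest input library held a median of 2.21 times the CPM of the lowest in the 200000-cell mef2 inputs (10 regions) and of 123 times in the small mef2 inputs (5 regions). For all regions these ratios were 2.42 and 101. In the large and small duf inputs the ratios were 6.22 (27 regions) and 14.0 (16 regions), against 5.36 and 8.25 over all regions. In twi CD2+ and CD2- inputs, of 100000 to 200000 cells, they were 12.01 (10 regions) and 5.23 (11 regions), against 3.02 and 2.68. These ratios are over 3 to 6 libraries and over different regions in each group, so they are not set against each other.

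Reads at the 2 ends of a region were compared with all its reads, and 3 CBP regions stood apart. In CBP5470 (2R 16492501 to 16493592) all reads were end reads in the 5 inputs where it held at least 1000 reads, and 99.9% to 100% of those were at its start. In CBP6172 (3R 4556690 to 4557753) end reads made up a median of 68.6% of the reads in inputs with at least 1000 reads of it. In CBP5210 the median was 32.8%, with a range of 19.6% to 100%. In GFP+ libraries with at least 1000 reads the medians were higher, at 84.6% for CBP6172 and 86.1% for CBP5210. Their ranges in GFP+ libraries were 18.1% to 99.7% for CBP6172 and 20.6% to 99.9% for CBP5210, and inputs of CBP6172 ran from 36.7% to 99.3%. The ranges thus overlapped for both regions, and a difference in the kinds of read was not tested. The CPM values above count all reads.

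GC content of CBP regions and their log10 mean CPM in the large duf inputs correlated at Pearson 0.47 and Spearman 0.33 over 27 regions, against 0.22 and 0.23 over 323 regions of all kinds. In twi CD2- inputs the values were 0.00 and 0.17 over 11 CBP regions. The regions share libraries and PCR, and the correlation is a description across regions.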
